A study of Mus musculus with 42 samples.

Results

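The BMAL1, CLOCK, REV-ERB and ROR loop is the arm of the molecular clock that drives Arntl, and 6 of its genes were followed over the day in macrophages of aged and young mice. They were taken by name, with no threshold on their values, from the 47643 genes of the deposited tables: Arntl, which encodes BMAL1, Clock, Npas2, Nr1d1 and Nr1d2, which encode REV-ERBα and REV-ERBβ, and Rora, which encodes RORα. All 6 were in both tables. In GENCODE M21 on GRCm38 the members are protein-coding genes, with Arntl (ENSMUSG00000055116) at chr7:113207465-113314126 on the plus strand, Clock (ENSMUSG00000029238) at chr5:76209868-76304792 on the minus strand, Npas2 (ENSMUSG00000026077) at chr1:39193731-39363236 on the plus strand, Nr1d1 (ENSMUSG00000020889) at chr11:98767932-98775333 on the minus strand, Nr1d2 (ENSMUSG00000021775) at chr14:18204054-18239127 on the minus strand and Rora (ENSMUSG00000032238) at chr9:68653786-69388246 on the plus strand. The old mice were 18 to 20 months of age and the young mice 2 to 3 months, and both were of the C57BL/6 strain. No treatment or genetic change is given for either age, and the labels name neither the tissue of origin nor the sex of the mice. Sampling covered 7 zeitgeber times (ZT, hours after lights on), every 4 h from ZT0 to ZT24, with 3 libraries per age and time, or 21 per age and 42 in all.

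BMAL1 pairs with CLOCK, or with its close relative NPAS2, and the pair binds E-box sequences to switch on many genes, among them Nr1d1 and Nr1d2. The REV-ERB proteins are nuclear receptors that recruit the NCoR and HDAC3 corepressor complex, and they compete with the activator RORα for the same response elements, including those of Arntl. Arntl and the REV-ERB transcripts therefore run in near opposite phase in many tissues, and in macrophages the REV-ERBs also restrain genes of inflammation.

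The start regions of the members are shown because the 2 kinds of site that define the loop can be looked for in them. The bases come from RefSeq on GRCm38.p6, in which all 6 members had an entry, with 9 windows in all from 250 bases before to 50 after a start. Searched on both strands were the E-box CACGTG, the related E-prime box CACGTT, the AGGTCA core that REV-ERB and ROR elements share, and the D-box written as TTATGTAA or TTACGTAA. Of 32851 windows in the whole table, 7.15% held the E-box, 4.685% the E-prime box, 16.255% the AGGTCA core and 1.056% the D-box. The 250 bases before the Nr1d1 start (chr11:98775378-98775627, minus strand) and before the Nr1d2 start (chr14:18239107-18239356, minus strand) are given on the strand of the gene. The capitals mark an E-prime box read from the other strand in Nr1d1 and an AGGTCA core in Nr1d2.
Nr1d1: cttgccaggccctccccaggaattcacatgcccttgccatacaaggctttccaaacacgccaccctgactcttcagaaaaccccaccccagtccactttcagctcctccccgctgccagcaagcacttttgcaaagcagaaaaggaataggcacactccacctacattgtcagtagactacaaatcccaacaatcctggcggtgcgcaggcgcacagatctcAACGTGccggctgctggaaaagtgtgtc
Nr1d2: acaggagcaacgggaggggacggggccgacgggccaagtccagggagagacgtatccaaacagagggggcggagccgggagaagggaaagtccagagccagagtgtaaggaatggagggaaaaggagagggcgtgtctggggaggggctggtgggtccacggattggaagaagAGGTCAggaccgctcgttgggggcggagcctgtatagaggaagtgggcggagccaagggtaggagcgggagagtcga
The Arntl core lay 32 bases after the RefSeq start in its second window (chr7:113207533-113207556, plus strand). In Clock the core was read from the other strand in one of its windows, 119 bases before the RefSeq start (chr5:76303607-76303630, minus strand). Both sites are given as 24 bases with the core in capitals.
Arntl: gcagaaagtAGGTCAgggacggag
Clock: tttggcctcTGACCTgacagatga
The windows of Npas2 and Rora held none of these letters, and no window of any member held CACGTG or the D-box. The Nr1d1 window is the only one of the 9 for which the bases just after the RefSeq start were not found in the GENCODE M21 transcripts of its gene, and that start lies outside the GENCODE span given above. A match shows only that the letters are there, and no binding was measured.

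RNA was read from the 3' end of transcripts, so that a longer gene does not collect more reads. Depth in genes was 4864402 to 15587030 reads per old library (median 8159784) and 7433159 to 13574542 per young library (median 9847012). Levels are given as rescaled reads, which are the reads of a library divided by a size factor set over all 42 libraries. Nothing in the labels states that replicates come from separate mice, so every p-value measures the spread between these libraries, which may be technical. Each age was also deposited as a table of its own, so age cannot be told apart from whatever else separated the 2 tables. All 8 macrophage markers were above 0 in both ages, with a summed level of 178334 to 315082 rescaled reads in old and 222331 to 334929 in young libraries. The 5 B cell markers summed to 3762 to 14470 in old and 3743 to 6991 in young libraries, the 6 T cell markers to 43.8 to 863 in old and 48.2 to 173 in young libraries, and the 5 mesothelial and stromal markers to 19.1 to 91.6 in old and 0 to 25.3 in young libraries, with old above young at every time but ZT16 and 1 of the 5 at 0 in all young libraries. The 5 mast cell markers summed to 367 to 1904 in old and 528 to 1917 in young libraries, the 5 neutrophil markers to 310 to 845 in old and 243 to 576 in young libraries, and the 4 markers of type 2 innate lymphoid cells to 108 to 1256 in old and 215 to 487 in young libraries. The part of these cells in the results below was not tested, and in bulk RNA fewer cells of a type and less RNA per cell cannot be told apart. Old ZT16 replicate 3 and old ZT8 replicate 1 lay farthest from the other libraries of their groups, and calls at single times and over the day that change without them are given beside the result.

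Arntl, the activator of the loop, was high around ZT0 and low at ZT12 in both ages. Old libraries held 338, 232 and 238 rescaled reads at ZT0, 257, 222 and 192 at ZT4, 63.0, 98.5 and 110 at ZT8, 67.6, 70.4 and 50.0 at ZT12, 107, 103 and 134 at ZT16, 203, 190 and 276 at ZT20, and 208, 320 and 235 at ZT24. Young libraries held 264, 288 and 330 at ZT0, 234, 243 and 188 at ZT4, 156, 159 and 220 at ZT8, 57.1, 67.6 and 70.3 at ZT12, 66.1, 86.3 and 96.9 at ZT16, 163, 186 and 192 at ZT20, and 371, 216 and 251 at ZT24. The mean at ZT0 was 4.30 times that at ZT12 in old cells and 4.53 times in young cells. In order of the means, the old group stepped down between ZT20 and ZT16 with no overlap of the libraries, and the young group between ZT8 and ZT16. All other neighbours in the 2 orders overlapped.

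At ZT8 Arntl stood lower in every old library than in any young one. It fell by 0.995 ± 0.229 (SE) on the log2 scale, a fold of 0.502, with an adjusted p of 0.00799 in limma. At this time 4.01% of 12086 genes were called, 2.04% as lower. The call was lost without old ZT8 replicate 1 (adjusted p 0.0996), without young ZT8 replicate 3 (0.0874), and without the 2 far old libraries together (0.0896). The difference was then -0.76 without old ZT8 replicate 1 and -0.84 without young ZT8 replicate 3. Several marker sums also separated the ages at ZT8. Those of B cells were 9560 to 14470 rescaled reads in old and 4949 to 6505 in young libraries, those of T cells 141 to 183 in old and 83.7 to 123.2 in young, mesothelial and stromal ones 28.7 to 62.4 in old and 0 to 8.47 in young, and those of type 2 innate lymphoid cells 133 to 343 in old and 347 to 487 in young. Their part in the difference was not tested. At ZT16 the old libraries held more Arntl than the young ones with no overlap, but the log2 difference of 0.46 ± 0.23 did not pass (adjusted p 0.464). Libraries of 3 against 3 failed to overlap for 18.5% of all genes at ZT8 and for 13.7% at ZT16.

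Clock, the partner of BMAL1, stayed within a narrow band. It ranged from 420 to 704 rescaled reads over the 21 old libraries (median 569) and from 416 to 742 over the 21 young libraries (median 543). Group means were highest at ZT24 and lowest at ZT12 in both ages, at 655 and 487 in old and at 621 and 452 in young cells. Neighbouring times overlapped throughout both orders, and old and young libraries overlapped at all 7 times. At ZT20, where 19.2% of all genes separated the ages, none of the 5 tested members did.

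Npas2, which can take the place of CLOCK, was close to absent. It had 4 reads over 3 old libraries and 6 reads in a single young library, ZT0 replicate 2, out of 385033101 reads in all. The other 38 libraries were at 0, where a count of 0 allows up to 3 reads, or 1.77 to 5.48 rescaled reads depending on the library. That count covers counting error only. Npas2 did not reach the mean of 10 needed for a test, so 5 of the 6 members were tested.

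Nr1d1, the REV-ERBα gene, swung from a few reads to over 100 within the day. Old libraries held 2.25, 10.9 and 1.83 rescaled reads at ZT0, 146, 104 and 110 at ZT4, 263, 140 and 241 at ZT8, 152, 132 and 111 at ZT12, 12.8, 11.5 and 0 at ZT16, 6.10, 2.66 and 5.94 at ZT20, and 22.8, 3.91 and 12.9 at ZT24. Young libraries held 7.17, 0 and 0 at ZT0, 17.0, 15.8 and 18.5 at ZT4, 208, 174 and 250 at ZT8, 130, 95.3 and 145 at ZT12, 29.7, 38.2 and 60.6 at ZT16, 8.10, 7.79 and 3.49 at ZT20, and 0, 0 and 4.92 at ZT24. Both ages were highest at ZT8, and they parted on either side of it: at ZT4 the old libraries were already near their ZT12 level, and at ZT16 they were down to 12.8 or less.

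At ZT16 Nr1d1 fell by 2.91 ± 0.77 on the log2 scale in old cells (adjusted p 0.0482), where 1.06% of genes were called, 0.281% as lower. The call held under edgeR and DESeq2, and in all under 5 of 13 other settings (adjusted p 0.00132 to 0.502 over the 13). Leaving out 1 library ended the limma call for 26 of the 42 libraries. Where the library came from another time the difference itself stayed at -2.91, with an adjusted p of 0.0504 to 0.0572. Without old ZT16 replicate 3, which had 0 reads, the difference was -1.68 (adjusted p 0.509), and without 1 of the young ZT16 libraries it was -3.14 to -2.64 (0.0985 to 0.191). The B cell markers overlapped between the ages at this time, at 4262 to 7539 rescaled reads in old and 4347 to 5356 in young libraries. At ZT4 the log2 difference was 2.72 ± 0.77 with no overlap of the libraries, as for 18% of all genes, and limma's adjusted p was 0.0611, against 0.00625 in edgeR and 5.43e-07 in DESeq2. The marker sums that separated the ages at ZT4 were those of mast cells (367 to 1211 in old, 1265 to 1917 in young libraries), neutrophils (409 to 583 in old, 292 to 391 in young) and mesothelial and stromal cells (46.8 to 66.5 in old, 0 to 4.00 in young). At ZT24 the log2 difference of Nr1d1 was 2.70 ± 0.77 (adjusted p 0.0518 in limma and 0.0111 in DESeq2), with an overlap of old replicate 2 with young replicate 3. Without the 2 far old libraries limma called Nr1d1 at ZT4 (0.0209) and at ZT24 (0.0194). At ZT24 the B cell markers summed to 6305 to 9126 rescaled reads in old and 3743 to 6127 in young libraries, the T cell markers to 160 to 281 in old and 48.2 to 82.4 in young, the neutrophil markers to 328 to 400.1 in old and 298 to 323 in young, the mesothelial and stromal markers to 28.9 to 88.3 in old and 4.92 to 16.1 in young, and the macrophage markers to 207761 to 248340 in old and 273425 to 308523 in young. The part of these sums in the differences was not tested. Ordered by level, 1 of 6 steps of the old means was without overlap, that between ZT4 and ZT24, as were 4 of 6 steps of the young means, those from ZT8 through ZT12, ZT16 and ZT4 to ZT20.

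Nr1d1 shares its 3' end with Thra, a thyroid hormone receptor gene on the opposite strand, and the 2 have 263 exon bases in common. No strand setting of the counting is given, so reads near that end cannot be assigned to 1 of the 2 with certainty. In the 18 libraries with at most 10 Nr1d1 reads, Thra had 148 to 386 reads, and 5 libraries had no Nr1d1 read. Thra itself followed a weaker rhythm, with a fitted peak at ZT5.40 and a 1.91-fold range in old cells (adjusted p 0.0144) and at ZT7.62 and 2.02-fold in young cells (2.85e-05).

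**Figure D1:**
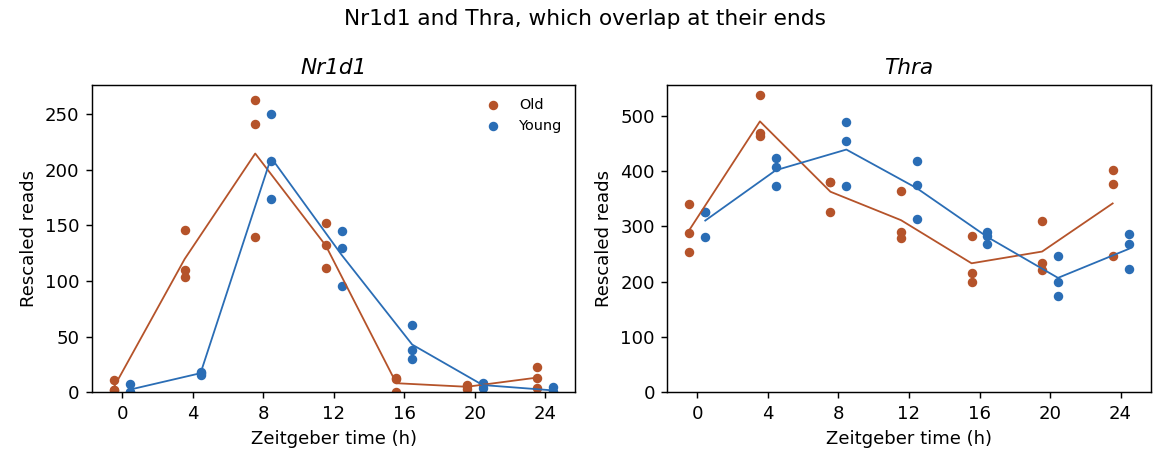
Rescaled reads of Nr1d1 (left) and Thra (right) by zeitgeber time, with a point per library and lines through the means of 3 libraries, old points drawn left of young ones. Nr1d1 comes down to 0 while Thra stays between 174 and 537 rescaled reads.

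Nr1d2, the REV-ERBβ gene, also rose and fell within the day, with a trough well above 0. Old libraries held 217, 161 and 217 rescaled reads at ZT0, 395, 322 and 347 at ZT4, 772, 943 and 869 at ZT8, 876, 655 and 666 at ZT12, 295, 521 and 241 at ZT16, 281, 303 and 133 at ZT20, and 304, 220 and 146 at ZT24. Young libraries held 92.0, 119 and 120 at ZT0, 238, 201 and 401 at ZT4, 586, 635 and 645 at ZT8, 890, 884 and 945 at ZT12, 583, 728 and 498 at ZT16, 156, 210 and 180 at ZT20, and 96.5, 106 and 145 at ZT24. The highest mean came at ZT8 in old cells (861) and at ZT12 in young cells (906). The lowest mean, at ZT0 in both, was 199 in old and 110 in young cells.

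Old Nr1d2 libraries lay above all young ones at ZT0, ZT8 and ZT24 and below them at ZT12, times at which 15.5%, 18.5%, 18.6% and 17.5% of all genes did not overlap. None of the single times passed. Limma called 0.794% of all genes at ZT0, 1.35% at ZT4, 4.01% at ZT8, 2.08% at ZT12, 1.06% at ZT16, 1.65% at ZT20 and 2.09% at ZT24. At ZT8 the mean log2 level of Nr1d2 was 9.75 in old and 9.28 in young cells. At ZT12 it was 9.51 in old and 9.82 in young cells. The log2 difference was 0.84 ± 0.26 at ZT0 (adjusted p 0.131), -0.84 ± 0.26 at ZT16 (0.126) and 0.90 ± 0.26 at ZT24 (0.0580), where DESeq2 gave 0.0221 and limma without the 2 far old libraries 0.0432. The marker sums that separated the ages at ZT24 are those given for Nr1d1.

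Rora, the activating counterpart of the REV-ERBs, showed no order over the day that its spread would carry. It ranged from 157 to 388 rescaled reads over the old libraries (median 244) and from 111 to 307 over the young libraries (median 230). The highest means were at ZT12 in both ages, at 320 in old and 285 in young cells, and old and young libraries overlapped at all 7 times.

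**Figure D2:**
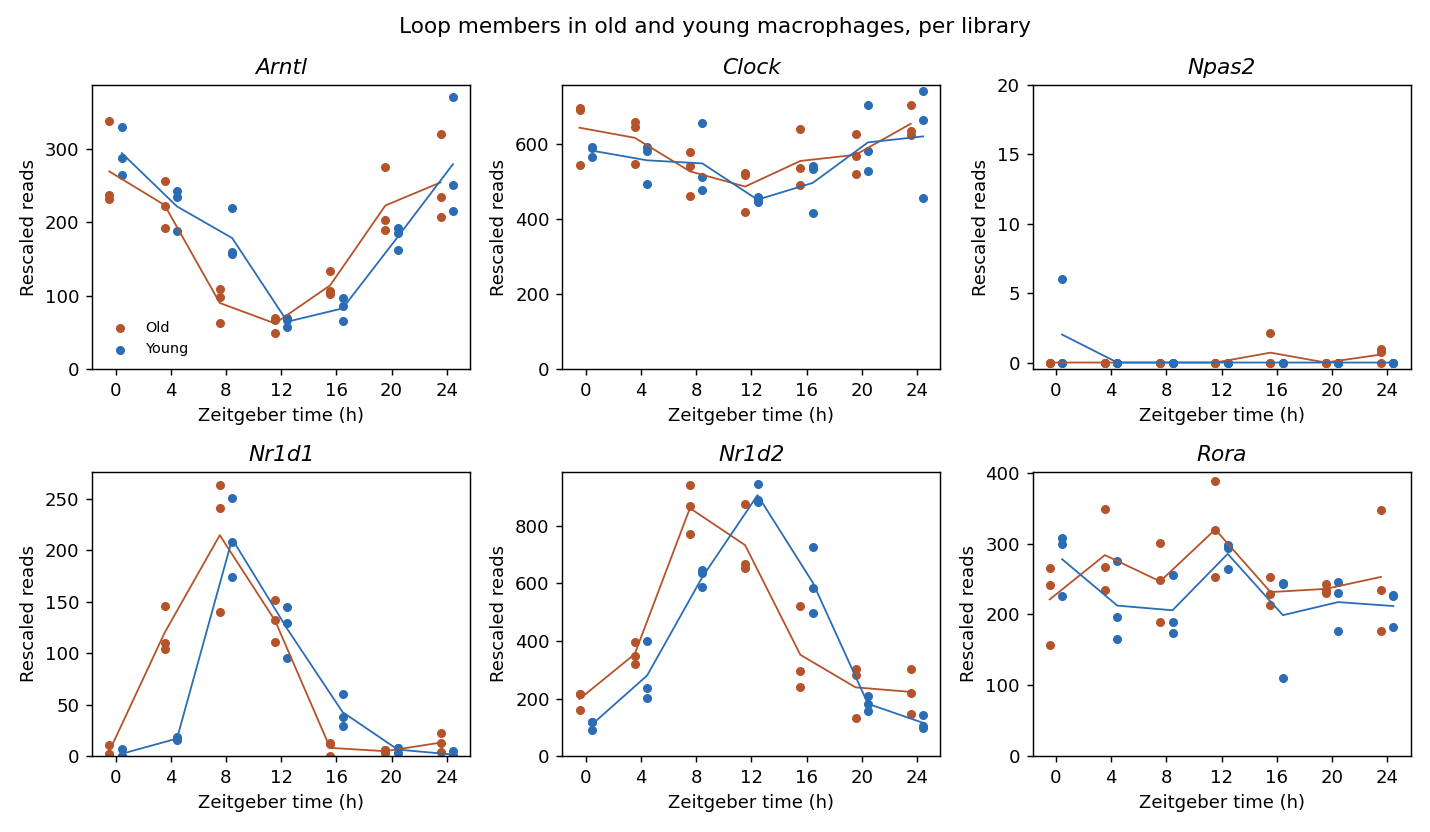
Rescaled reads of the 6 members by zeitgeber time, with a point per library and lines through the means of 3 libraries, old points drawn left of young ones. Arntl is lowest at ZT12 in both ages, Nr1d2 is highest at ZT8 in old and at ZT12 in young cells, and Npas2 does not exceed 6.05.

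The first comparison asked which members follow a 24 h rhythm within an age. A cosine of 24 h was fitted to log2(value + 1), and Arntl, Nr1d1 and Nr1d2 were called in both ages, Clock and Rora in neither. These were 3 of 5 tested members in old cells, where 0.308% of 12016 genes were called, and 3 of 5 in young cells, where 3.62% of 12113 genes were. The median peak-to-trough fold over the 5 members was 4.11 in old and 4.12 in young cells, beside 1.21 over all genes in each age. At an unadjusted p under 0.05 Clock joined them, which made 4 of 5 in each age, beside 9.01% of genes in old and 17.2% in young cells. No other setting that was run and no library left out altered the 3 calls.

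Fitted Arntl peaked at ZT23.6 ± 0.382 h (SE) with a 4.11-fold range in old cells (adjusted p 3.50e-07) and at ZT1.53 ± 0.365 h with a 4.12-fold range in young cells (6.88e-09). For Nr1d1 the peak was at ZT8.03 ± 0.379 h in old cells (6.46e-06) and at ZT10.8 ± 0.356 h in young cells (3.25e-09). Its fitted fold depends on what is added to values near 0: it was 84.0 in old and 109 in young cells with 1 added, but 38.8 in old and 35.0 in young cells with 5 added. Nr1d2 peaked at ZT9.84 ± 0.402 h with a 4.48-fold range in old cells (3.06e-06) and at ZT11.5 ± 0.217 h with an 8.37-fold range in young cells (6.10e-15). Its p in young cells was the lowest of all genes tested there. Clock came closest among the rest, with a 1.30-fold range in old cells (adjusted p 0.282) and 1.28-fold in young cells (0.147), fitted to peak at ZT0.198 in old and ZT0.148 in young cells. Rora had a 1.23-fold range in old cells (0.751) and a 1.03-fold range in young cells (0.994).

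**Figure D3:**
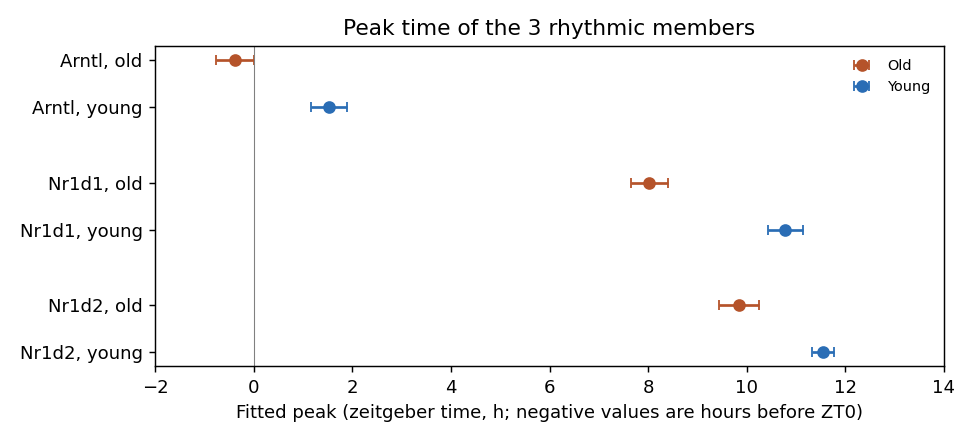
Fitted peak of the 24 h cosine for the 3 members called rhythmic, in hours of zeitgeber time, with bars of 1 SE and old above young for each gene. The fitted old peak lies 1.71 to 2.76 h before the fitted young one in all 3.

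Timing and amplitude were then compared between the ages. All 3 rhythmic members had the earlier fitted peak in old cells. The lead was 2.76 h for Nr1d1 (95% interval 1.71 to 3.80), 1.92 h for Arntl (0.863 to 2.98) and 1.71 h for Nr1d2 (0.797 to 2.62). Libraries were taken every 4 h, and the time of the highest mean was the same in both ages for Nr1d1 (ZT8) and Arntl (ZT0). For Nr1d2 it was ZT8 in old and ZT12 in young cells. The fitted amplitude of Arntl in old cells reached 99.8% of its young amplitude (77.8% to 128%) and that of Nr1d1 94.4% (72.0% to 124%), while Nr1d2 reached 70.6% (56.4% to 88.2%). These intervals are not adjusted for the number of genes. The Nr1d1 percentage is for 1 added to values, and the order of the ages depends on that choice. Its fitted fold was 101 in old and 168 in young cells with 0.5 added, but 38.8 in old and 35.0 in young cells with 5 added. In the test across all genes no member was called by limma, nor was any of the 12086 genes (0%), with 494 genes at an unadjusted p under 0.05 (4.09%). Nr1d2 (adjusted p 0.0516, unadjusted 1.92e-05) and Nr1d1 (0.0789, 3.91e-05) came close and Arntl did not (0.999, 0.00393). At an unadjusted p under 0.05 there were 3 of 5 members, edgeR called Nr1d1 alone (adjusted p 0.0244), and DESeq2 called Nr1d1 (0.00124) and Nr1d2 (0.0111). For Clock the peaks differed by 0.0501 h, with an interval from -3.56 to 3.66 h.

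The gaps between the peaks of the loop were compared as well, and the interval of each difference between the ages held 0. Nr1d1 followed Arntl by 8.41 ± 0.518 h in old and 9.25 ± 0.578 h in young cells, a difference of -0.837 h whose 95% interval ran from -2.41 to 0.737 h. Nr1d2 followed Arntl by 10.2 ± 0.509 h in old and 10.02 ± 0.399 h in young cells, a difference of 0.208 h (-1.10 to 1.52). Nr1d2 came after Nr1d1 by 1.81 h in old cells (0.643 to 2.98) and by 0.768 h in young cells (-0.124 to 1.66), and these gaps differed by 1.05 h (-0.376 to 2.47).

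Taken within a library, where no scaling enters, the reads of Nr1d2 per read of Arntl passed through the same cycle. The median ratio in old cells was 0.695 at ZT0, 1.54 at ZT4, 9.57 at ZT8, 13.0 at ZT12, 2.76 at ZT16, 1.38 at ZT20 and 0.686 at ZT24. In young cells it was 0.362, 1.02, 3.74, 13.4, 8.43, 0.957 and 0.493 at the same times. At ZT8 the 3 old libraries lay at 7.90 to 12.3 and the young ones at 2.93 to 3.98, and at ZT16 the old ones lay at 1.80 to 5.08 and the young ones at 5.14 to 8.82. The old ratios also lay above the young ones at ZT0, at 0.641 to 0.915 in old and 0.348 to 0.413 in young libraries, and at ZT24, at 0.624 to 1.46 in old and 0.260 to 0.576 in young libraries. The old ratio was thus the higher at ZT0, ZT8 and ZT24 and the lower at ZT16, with overlap at ZT4, ZT12 and ZT20. These ratios were not tested, and they are made of the Nr1d2 and Arntl reads given above. Among all genes, taken singly, 15.5% did not overlap at ZT0, 18.5% at ZT8, 13.7% at ZT16 and 18.6% at ZT24.

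**Figure D4:**
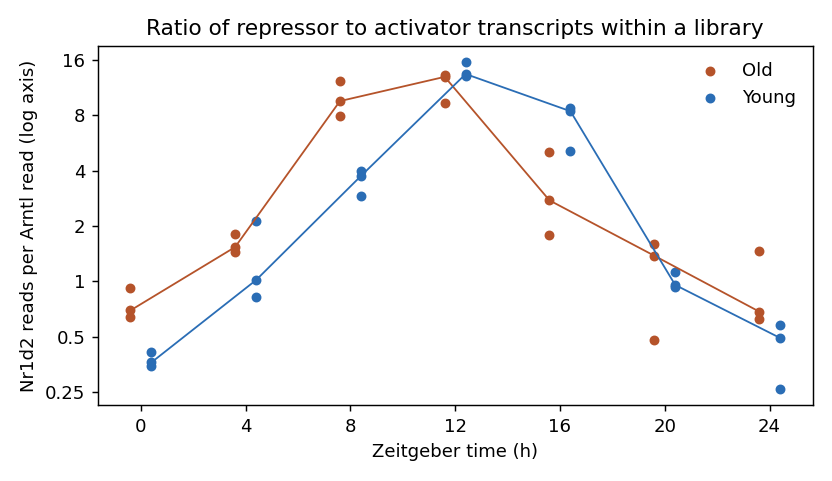
Nr1d2 reads per Arntl read in each library by zeitgeber time on a log axis, with lines through the medians of 3 libraries, old points drawn left of young ones. The old ratio is the higher at ZT8 (median 9.57 in old against 3.74 in young cells) and the lower at ZT16 (2.76 in old against 8.43 in young cells).

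Averaged over the day, the level of no member was called different between the ages by limma, where 23.7% of 12086 genes were. The log2 difference, old minus young, was 0.25 ± 0.10 for Nr1d2 (adjusted p 0.0603), 0.50 ± 0.29 for Nr1d1 (0.225), 0.16 ± 0.10 for Rora (0.246), 0.07 ± 0.06 for Clock (0.396) and -0.08 ± 0.09 for Arntl (0.566). Only Nr1d2 had an unadjusted p under 0.05, as 34% of genes did. EdgeR called Nr1d2 (adjusted p 0.0408), and DESeq2 called Nr1d2 (0.0267) and Nr1d1 (0.0201). The median of the 5 members was 0.16, beside 0.00 over all genes. Without the 2 far old libraries limma called Nr1d2 (0.0258). Without old ZT16 replicate 3 alone it called both Nr1d2 (0.0289) and Nr1d1 (0.0464), and 6 other single libraries left out brought Nr1d2 under the threshold (0.0110 to 0.0461), these being old ZT0 replicate 2, old ZT20 replicate 3, old ZT24 replicate 3, young ZT4 replicate 3, young ZT16 replicate 2 and young ZT24 replicate 3.

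**Figure D5:**
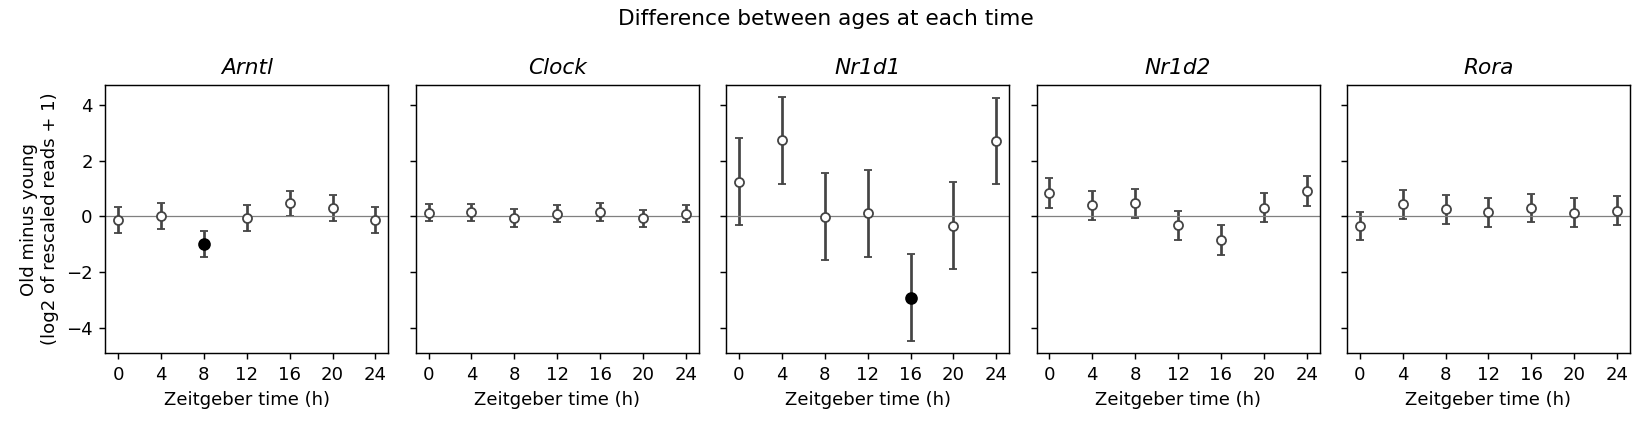
Difference in log2(rescaled reads + 1), old minus young, at each zeitgeber time for the 5 tested members, with 95% intervals from the limma model and filled points for adjusted p under 0.05. Nr1d1 lies at 2.72 at ZT4 and at -2.91 at ZT16, and the filled points are Arntl at ZT8 and Nr1d1 at ZT16.

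ZT24 repeats the clock time of ZT0 a day later. No member differed between them in either age by limma, edgeR or DESeq2, or at an unadjusted p under 0.05. The widest gap was that of Nr1d1 in old cells, with a log2 difference of 1.30 ± 0.77 (adjusted p 0.986). By limma 0 of all genes were called in old cells (0%, and 583 or 4.82% at an unadjusted p under 0.05) and 1 in young cells (0.00827%, and 402 or 3.33%).

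Libraries of a group spread differently from gene to gene. On the log2 scale the within-group SD was widest for Nr1d1, at 1.06 in old and 0.928 in young cells. For Nr1d1 it was 2.15 at old ZT16 and 1.75 at young ZT0, groups that held libraries with 0 reads. At its high times it was 0.493 at ZT8 and 0.224 at ZT12 in old cells, and 0.261 and 0.312 in young cells. Over all times the SD of Nr1d2 was 0.413 in old and 0.276 in young cells, and that of Arntl 0.295 in old and 0.245 in young cells. It was the larger in young cells for Clock (0.163 in old, 0.208 in young) and Rora (0.318 in old, 0.341 in young). Over all genes the median was 0.303 in old and 0.262 in young cells, and the SD was the larger in old cells for 66.5% of genes.

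Around the loop, clock genes outside it were rhythmic in larger numbers than any other list. Of 12 genes, with Hlf too low to test, limma called 7 of 11 in old cells and 9 of 11 in young cells. Over all genes limma called 0.308% in old and 3.62% in young cells. EdgeR called 7 of the 11 in old and 8 in young cells, and DESeq2 9 in old and 8 in young cells. The median peak-to-trough fold was 3.96 in old and 6.09 in young cells. Tef, a transcription factor of the PAR bZIP family, had the lowest p, with a peak at ZT11.7 in old (adjusted p 3.03e-10) and ZT13.7 in young cells (4.48e-14). Limma called 7 genes in both ages: Per1, Per2, Per3, Cry1, Cry2, Dbp and Tef. Their fitted peak was 2.06 to 3.54 h earlier in old cells. Of the 7, edgeR did not call Cry2 in young cells. No difference in rhythm was called among the 11 by limma (7 at an unadjusted p under 0.05), while edgeR called Cry1 and DESeq2 Cry1 and Tef. Over the day 3 of the 11 were higher in old cells, as were 12% of all genes: the repressors Bhlhe41 (0.51 ± 0.11 on the log2 scale, adjusted p 0.000492), Nfil3 (0.34 ± 0.11, 0.0162) and Bhlhe40 (0.17 ± 0.06, 0.0476). NFIL3 and the PAR bZIP factors compete for D-boxes, and the BHLHE proteins repress at E-boxes.

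Calls among the cofactors of the loop are set beside those of all genes. Limma called 0.308% of all genes rhythmic in old and 3.62% in young cells, with a median fold of 1.21 in each age. At an unadjusted p under 0.05 the shares were 9.01% in old and 17.2% in young cells. At such shares, an absence of calls among so few genes does not set them apart from other genes. None of the 6 genes of the REV-ERB corepressor complex was called rhythmic in either age by limma, edgeR or DESeq2 (1 in old and 2 in young cells at an unadjusted p under 0.05), and their median fold was 1.16 in old and 1.15 in young cells. None of them differed in level over the day by the 3 tools (1 at an unadjusted p under 0.05). Of all genes limma called 23.7% in level, and 34% had an unadjusted p under 0.05. The 5 regulators of REV-ERB stability gave no rhythm call by any of the 3 tools either (0 in old and 1 in young cells at an unadjusted p under 0.05), and 1 of them, the F-box protein gene Fbxw7, was higher in old cells by 0.14 ± 0.04 (adjusted p 0.00704), where 12% of all genes were. Of the 8 partners and modifiers of BMAL1 and CLOCK, none was called rhythmic in old cells by the 3 tools (0 at an unadjusted p under 0.05). The histone demethylase gene Kdm5a was called in young cells (1.31-fold, adjusted p 0.0347), where limma called 3.62% of all genes. There 2 of the 8 had an unadjusted p under 0.05, beside 17.2% of all genes. None of the 8 was called different in level, beside 23.7% of all genes, and 3 had an unadjusted p under 0.05, beside 34%. Arntl2, the paralog of Arntl, passed the filter in young cells alone, with an adjusted p of 0.844.

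Among 7 genes held under REV-ERB control in macrophages, only Nlrp3, the inflammasome sensor, was called rhythmic. Limma called 0.308% of all genes in old and 3.62% in young cells. The Nlrp3 peak was at ZT22.3 with a 2.99-fold range in old cells (adjusted p 8.44e-05) and at ZT0.0696 with a 2.60-fold range in young cells (2.67e-05). Mmp9, a secreted protease gene, fell by 1.14 ± 0.13 on the log2 scale in old cells (4.13e-09), the only one of the 7 called in level, where 11.7% of all genes were lower. Cx3cr1, the fractalkine receptor gene, and Mmp9 were not called rhythmic, and their fitted peaks were at ZT1.78 and ZT2.01 in old cells, against ZT10.3 and ZT10.1 in young cells. In limma the adjusted p for the difference in rhythm was 0.966 for both, with an unadjusted p of 0.00287 for Cx3cr1 and 0.00225 for Mmp9. At an unadjusted p under 0.05, 3 of the 7 were rhythmic in old cells, beside 9.01% of all genes. In young cells 4 were, beside 17.2%, and 2 differed in rhythm, beside 4.09%. For the level over the day 3 of the 7 had an unadjusted p under 0.05, beside 34% of all genes.

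To place the members among other transcripts, the 14 group means of each were centred within an age and correlated with those of 10639 other genes. This is a description over means that share libraries. Arntl was most like BC037034 (r = 0.97), Evi5 (0.96) and Dhrs3 (0.96), and most opposite to Ssbp4 (-0.95), Tef (-0.94) and Mthfd1l (-0.94). Clock was most like Dhrs3 (0.96) and Arntl itself (0.93), although its own rhythm was not called. Nr1d1 was most like Emp1 (0.93), Avpi1 (0.93) and Fam98c (0.93). Nr1d2 was most like Nptn (0.94), Lat2 (0.93) and Sin3b (0.92), and Nlrp3 (-0.94) was its most opposite gene. Rora was most like Xpo7 (0.92), Atraid (0.90) and Ext2 (0.89). Within the loop r was 0.91 for Nr1d1 with Nr1d2, -0.87 for Arntl with Nr1d2 and -0.65 for Arntl with Nr1d1, while Rora stayed between -0.37 and 0.24 with the other 4.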

How the data were processed

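Libraries were prepared from total RNA by the QuantSeq 3' method, per the labels' protocols. Per the submitters' processing notes, STAR, DESeq2 and mm10 were used. Tool versions, the counter, its strand setting and the annotation were not given in the sources used here. What the authors deposited is a normalized signal for each gene, as 1 table for each age with its own scaling. Each value was a whole multiple of the smallest one of its library (100% of values, within 0.001 of a read), so reads were recovered. Symbols for 47224 of 47643 genes came from matching Ensembl identifiers. All 42 replicate pairs differed by more than sampling noise (chi-square per gene 7.82 to 59.1).

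Rhythm within an age was tested on the deposited signal, and tests across ages used reads rescaled by the median of ratios over 42 libraries. Peak times, amplitudes and gaps between peaks, and their differences between ages with intervals, came from the fits within each age on the deposited signal. Values were used as log2(value + 1) for genes with a mean of at least 10, in limma 3.58.1 (R 4.3.3, trend) with Benjamini-Hochberg adjustment over all tested genes and a threshold of 0.05. A fold on this scale understates changes of genes with few reads. Rhythm used a moderated F-test of a 24 h cosine and sine, its difference the age terms of both, and levels the contrasts of 14 group means. Peak times carry delta-method errors. EdgeR 4.0.16 (quasi-likelihood) and DESeq2 1.42.0 on the recovered reads were alternatives: edgeR called 36 genes rhythmic in old and 467 in young cells, 4 different in rhythm and 2873 in level, and DESeq2 called 91 in old and 737 in young cells, 7 different in rhythm and 3052 in level. In the young rhythm test DESeq2 left 2114 adjusted p missing. The other alternatives were the pseudocount, filter, scaling, library weights, model of time, replicate block and each library left out, and a fit without the 2 old libraries farthest from their groups was added after the data had been seen. Scripts were tested on simulated data.

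The members and the lists were chosen with earlier results of these data known. Named genes are the members, genes overlapping them, the genes of the lists, which were counted whole with values for up to 4 of lowest p in each comparison, and the genes nearest to each member by correlation. Replicate numbers were not taken as pairs, other than in the replicate block. Over 63 same-numbered pairs per age, deviations from the group means correlated at a median r of -0.00976 in old and -0.00608 in young cells. Of these pairs 7 in old and 1 in young cells were over 0.1. Over 126 pairs of different number per age the median r was -0.00608 in old and 0.00324 in young cells, with 17 in old and 3 in young cells over 0.1.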

Additional observations from a re-analysis of the deposited data

How the results depend on the processing

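The rhythm calls of Arntl, Nr1d1 and Nr1d2 held in both ages under all 17 other settings in old and 16 in young cells, and with each of the 21 libraries of an age left out (3 called each time). Between the ages, the number of members called for a difference in rhythm was 0, and 1 under a pseudocount of 0.5, edgeR, upper quartile scaling, array weights or without the ZT0 libraries, and 2 under a pseudocount of 5 or DESeq2; leaving out 1 library gave 0 to 1. For the level over the day it was 0, and 1 under edgeR, array weights or without the 2 old libraries farthest from their groups, and 2 under DESeq2; leaving out 1 library gave 0 to 2. Of the member and time pairs 2 were called, and 1 with a mean of at least 1, a mean of at least 30, no filter or TMM scaling, 3 under a pseudocount of 5, edgeR or without the 2 far old libraries (which lost both and gained Nr1d1 at ZT4 and ZT24 and Nr1d2 at ZT24), 4 with array weights and 5 under DESeq2; leaving out 1 library gave 0 to 5. Arntl at ZT8 kept its call under 12 of 13 settings (0.00197 to 0.0896) and Nr1d1 at ZT16 under 5 of 13 (0.00132 to 0.502). Nr1d1 at ZT16 lost it without any 1 of 26 libraries, which were all 3 old ones of ZT4, ZT12 and ZT20, old ZT8 replicates 2 and 3, old ZT16 replicate 3, all 3 young ones of ZT8, ZT12, ZT16 and ZT20, and young ZT4 replicates 2 and 3. Nr1d1 at ZT4 was called without old ZT0 replicate 2, old ZT16 replicates 1 or 3, young ZT0 replicate 1 or young ZT24 replicate 3 (0.0200 to 0.0499), Nr1d1 at ZT24 without any 1 of these or of old ZT16 replicate 2, old ZT24 replicate 2 or young ZT0 replicate 2 (0.0178 to 0.0495), and Nr1d2 at ZT24 without old ZT16 replicates 2 or 3, old ZT20 replicate 3, old ZT24 replicate 3 or young ZT4 replicate 3 (0.00942 to 0.0445). Nr1d2 was called different in rhythm without old ZT0 replicate 2 (0.0332), old ZT12 replicate 1 (0.0456), old ZT20 replicate 2 (0.0452), old ZT24 replicate 3 (0.0415) or young ZT4 replicate 3 (0.0130). For the other settings the cause was not tested. Scaling moved the median log2 difference of all genes by at most 0.02.

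Uncalled fits changed direction for young Rora with a linear drift (adjusted p 0.941) or 1 library left out (0.719 to 0.999, 0.995 without either of 2 libraries), and for the Clock difference without the ZT0 libraries (adjusted p 1) or 1 library left out (0.998 to 1). With the replicate block, 3 members stayed rhythmic in each age and 0 differed in rhythm, 1 was called in level over the day (Nr1d2, adjusted p 0.0428) and 2 pairs at single times, where Nr1d1 at ZT16 went to 0.0519 and Nr1d2 at ZT24 to 0.0409. Depth limits Npas2 and the low phase of Nr1d1, where a few reads set the log values.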
